A study of Mus musculus with 4 samples.

Results

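The transcriptomes of LSK-SLAM cells of the fetal liver (FL) were compared between a GFP+ fraction, the BMP-activated cells, and a GFP- fraction, the non-BMP-activated cells, gene by gene. Each fraction was 1 sample, so 2 of the 4 samples of the series entered the comparison. Genes were kept when their FPKM (fragments mapped to a transcript, scaled to its length and to the size of the library) was at least 1 in either FL sample, which left 12134 of the 23906 gene symbols listed. Next to this limit, *AI182371* was kept with a larger value of 1.0002 and *Nanos3* was not, at 0.998. The difference is given throughout as the log2 ratio of (FPKM + 1) in GFP+ cells over (FPKM + 1) in GFP- cells, and a gene is called higher in a fraction when this ratio is at least 1 in size, that is 2-fold. With 1 sample per fraction there was no replicate check, no test and no error on any value. Every count is therefore a description of these libraries.

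Both FL fractions came from mice of the C57BL/6 background at embryonic day 14 that carry the BRE-GFP transgene, inherited from heterozygous transgenic males mated to wild-type females. In these mice a BMP response element drives GFP, so that a cell is green when BMP receptors signal through Smad proteins at the moment of isolation. Earlier signalling leaves no mark. LSK-SLAM cells lack lineage markers and CD48 and carry Sca1, cKit and CD150, a profile that enriches for haematopoietic stem cells (HSCs). The lineage antibodies for the FL were against CD3, B220, Ter119 and Ly6c, and CD11b was stained only in the adult bone marrow (BM). The FL samples are labelled BRE-GFP+ and BRE-GFP-, and the other samples are the same fractions of BM LSK-SLAM cells. The sources used here do not state how many embryos were pooled or whether the fractions came from the same embryos.

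BMP ligands bind pairs of type 1 and type 2 receptors, which phosphorylate Smad1, Smad5 and Smad9. These enter the nucleus with Smad4 and switch on a set of early target genes, of which the Id genes, inhibitors of basic helix-loop-helix factors, are the best known. The FL is the main site where HSCs expand before birth. It also holds erythroid precursors at every stage, macrophages that take up their expelled nuclei, and hepatoblasts that secrete albumin and alpha-fetoprotein.

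The labelled tissue was checked first against genes of fetal cells. *Lin28b*, an RNA-binding protein of fetal blood progenitors, was at 2.57 FPKM in the FL GFP+ sample and at 5.96 in the FL GFP- sample, and at 0.0443 and 0.0587 in the BM fractions. The imprinted transcript *H19* had an FPKM of 44.7 and 42.1 in the FL and of 0 and 0.0368 in the BM. *Igf2* had an FPKM of 17.5 and 12.5 in the FL and of 0.0969 and 0.394 in the BM. These genes thus separated the FL-labelled from the BM-labelled samples, with no overlap in level. Not every fetal gene did. *Afp* (alpha-fetoprotein) had 149 and 5.66 in the FL GFP+ and GFP- samples, and 12.9 and 4.79 in the BM fractions. Of 16 regulators of the fetal HSC programme, 14 passed the filter in the FL and 8 passed it in the BM. The GFP transgene has no row of its own, so the GFP label could be checked only through BMP targets. Among the 8 targets that passed the filter, none was 2-fold higher in the GFP+ sample and 3 were 2-fold higher in the GFP- sample, and *Id1*, from whose promoter the response element derives, was higher in GFP+ cells but short of 2-fold (a ratio of 0.94). The GFP labels were therefore not settled by these data, and every direction below holds for the libraries as labelled.

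Between the FL fractions, 1871 genes (15.4%) were at least 2-fold higher in GFP+ and 2946 genes (24.3%) were at least 2-fold higher in GFP- cells. Together these were 4817 genes (39.7%), and the other 7317 differed by less. As deposited, the excess in GFP- cells was not seen among genes with signal in both samples. Of the 9198 genes at an FPKM of at least 1 in both samples, 1375 (14.9%) were higher in GFP+ and 810 (8.81%) were higher in GFP- cells, the opposite order. Across all 12134 genes the median ratio was 0.05, and across the 9198 genes it was 0.22. The FPKM total was 646854 in GFP+ and 541453 in GFP- cells. With both samples scaled to equal totals, which moved every gene by 0.26 on the log2 scale before the pseudocount, 1351 genes were higher in GFP+ and 3342 were higher in GFP- cells. The share of calls that were higher in GFP+ cells then went from 38.8% to 28.8%. Whether the opposite order among the 9198 genes holds after scaling was not tested. Their median ratio of 0.22 was close in size to the shift of 0.26.

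Levels in the fractions were correlated over the 12134 genes, with a Pearson's r of 0.783 and a Spearman's rho of 0.799 on log2(FPKM + 1). Over the genes of at least 1 in both samples r was 0.877. These are correlations across genes of one library pair and not across samples. The median size of the ratio, whatever its sign, was 0.75 over all genes and 0.54 over the genes of at least 1 in both. Large differences were few once both samples had signal, with 26 of the 9198 genes at least 8-fold higher in GFP+ and 24 at least 8-fold higher in GFP- cells.

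**Figure D1:**
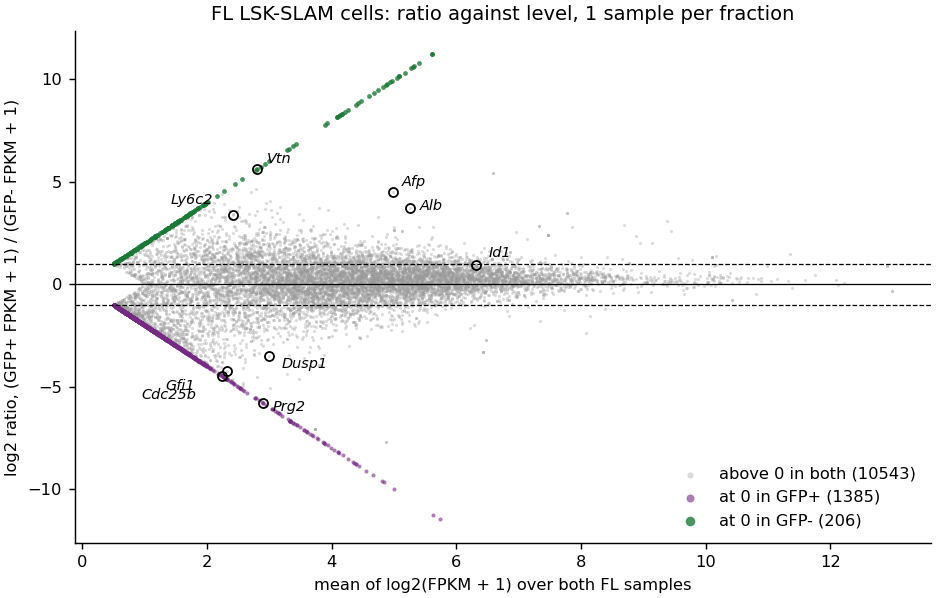
Each point is 1 of 12134 genes, with the mean of log2(FPKM + 1) over both FL samples on the horizontal axis and the log2 ratio of GFP+ over GFP- cells on the vertical axis. The 1385 genes listed at 0 in GFP+ cells (purple) and the 206 listed at 0 in GFP- cells (green) form the straight edges, where the ratio is set by the pseudocount, and dashed lines mark 2-fold.

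The share of genes past 2-fold depended on level. Genes were binned by the larger of their FL values. Among the 1112 genes between 1 and 2 FPKM, 61.3% were higher in GFP- cells against 7.10% higher in GFP+ cells. Among the 2147 genes of 16 to 32 the shares were 14.9% and 17.7%, and among the 2189 genes of 64 or more they were 5.25% and 12.6%. As deposited, the order of the fractions therefore turned between the bins of 8 to 16 and 16 to 32. Where it turns after scaling was not tested. The median ratio went from -1.09 in the lowest bin to 0.30 in the highest.

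Zeros were unequal between the fractions. Of the 11519 genes that reached 1 FPKM in GFP- cells, 1385 (12%) were listed at 0 in GFP+ cells, whereas 206 (2.1%) of the 9813 genes of at least 1 in GFP+ cells were listed at 0 in GFP- cells. The 1385 genes made up 47.0% of all genes called higher in GFP- cells. The 206 genes made up 11.0% of those called higher in GFP+ cells. Over all symbols, 12372 were above 0 in GFP+ and 15556 in GFP- cells, with 3720 above 0 only in GFP- and 536 only in GFP+ cells. The files hold no read counts, so the depth behind a single value is not known from them, and an exact 0 may be a failed estimate as well as a low level. No ratio is given here for a gene listed at 0, and medians over lists hold such genes at the value that the pseudocount sets.

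Most of the genes at 0 were low in the other fraction. The 1385 genes had a median FPKM of 2.53 in GFP- cells, and the 206 genes had a median of 5.71 in GFP+ cells. In the lowest bin 48.1% of genes were at 0 in GFP+ cells, in the bin of 32 to 64 it was 0.822%, and in the bin of 64 or more it was 2.60%. The genes at 0 in GFP+ cells in this last bin were all short RNA genes except *C430049B03Rik*. That gene had 100.65 in GFP- cells, a value it shared with microRNA genes. In both fractions zeros were also more frequent among short transcripts, over the 10612 genes (87.5%) that had a transcript length in the reference annotation. Zeros in GFP+ cells took 13.5% of genes in the fifth with the shortest transcripts and 7.72% in the fifth with the longest. For zeros in GFP- cells the shares were 2.35% and 0.707%. Some zeros stood against high values. Of the genes at 0 in GFP+ cells, 104 outside the short RNA classes reached an FPKM of 10 in GFP- cells, and 87 of these were at 1 or more in both BM samples. The same counts for genes at 0 in GFP- cells were 23 and 9.

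**Figure D2:**
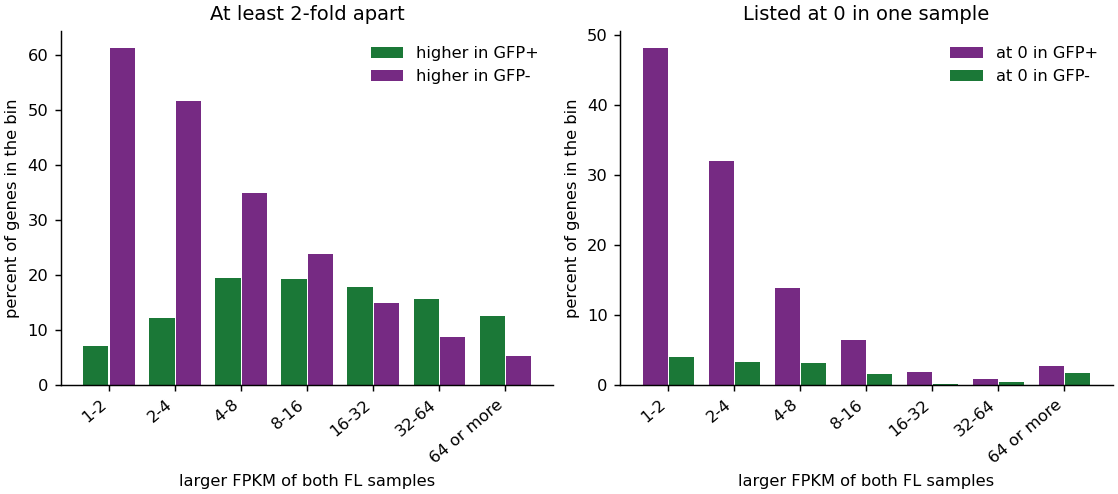
Bars give the percent of genes in each bin of the larger FL FPKM that were at least 2-fold higher in one fraction (left) or listed at 0 in one fraction and at least 1 in the other (right). Genes higher in GFP- cells made up 61.3% of the lowest bin and 5.25% of the highest, and genes at 0 in GFP+ cells took 48.1% of the lowest bin.

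Leaving out short RNA genes and symbols that share a value with one, the genes of highest FPKM listed at 0 in GFP+ cells were *Prg2* at 54.5 in GFP- cells, *Tbl3* at 46.6, *BC028528* at 45.7, *Rhof* at 35.5, *Tmem126b* at 34.9, *Srfbp1* at 32.6 and *Fance* at 32.5. Several of these serve functions common to most cells. *Tbl3* belongs to the machinery that processes ribosomal RNA, *Tmem126b* helps to assemble respiratory complex I, and *Fance* is a Fanconi anaemia gene of DNA repair. The genes of highest FPKM listed at 0 in GFP- cells were *Vtn* at 47.9 in GFP+ cells, *Enho* at 22.4, *Itpka* at 18.9, *Fam65c* at 15.4, *Simc1* at 15.1, *Tubb1* at 14.6 and *Fcnb* at 14.5. *Vtn* encodes vitronectin, a plasma protein made in the liver, *Tubb1* the tubulin of platelets and *Fcnb* a ficolin of neutrophil granules. In bulk RNA of a sorted fraction, fewer cells of a type and less RNA per cell cannot be told apart, here and in all that follows.

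Among genes with signal in both samples, the largest ratios of genes that share no value with a short RNA were those of liver proteins and a mixed set of others. *Afp* (alpha-fetoprotein) had 149 FPKM in GFP+ cells against 5.66 in GFP- cells, a ratio of 4.49. *B3gnt3*, a glycosyltransferase, had 32.1 and 1.44, a ratio of 3.76. *Alb* had 139.5 and 9.49, a ratio of 3.74. *Mc5r*, a melanocortin receptor, had 49.1 and 2.85. The next were *Fcna*, *Spaca1*, *Ppcs* (coenzyme A synthesis), *Oplah*, *Cdc25c* and *Snx33*, at FPKM of 23.1 to 52.6 in GFP+ and 1.01 to 3.34 in GFP- cells.

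In the other direction the leading genes were *Dohh* and *Pnpt1*. *Dohh*, the hydroxylase that completes hypusine on the translation factor eIF5A, had 1.25 FPKM in GFP+ cells against 54.2 in GFP- cells, a ratio of -4.61. *Pnpt1*, a mitochondrial RNA exonuclease, had 1.14 and 43.6, a ratio of -4.38. They were followed by *Atpaf2* (2.36 and 40.3), an assembly factor of ATP synthase, and by *Dusp1* (1.37 and 25.8), a phosphatase of stress kinases. *Tmbim1*, *F2rl3*, *Gstk1*, *Cstf2t*, *E2f6* and *Nfs1* came next, at FPKM of 1.05 to 3.43 in GFP+ and 20.9 to 47.2 in GFP- cells. *F2rl3* encodes the thrombin receptor PAR4 and *Nfs1* the desulphurase that supplies iron-sulphur clusters.

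Some of the most extreme ratios belonged to symbols that share 1 set of values with a microRNA gene. Identical FPKM in all 4 samples linked 471 of the 12134 symbols to at least 1 other, and 203 of these were in groups that held a short RNA symbol. Excluding the short RNAs themselves, 97 symbols carried a value shared with a short RNA, of which 25 were higher in GFP+ and 19 higher in GFP- cells. *Brd3*, a bromodomain gene, and *Mir7578* shared 638 FPKM in GFP+ cells against 13.6 in GFP- cells. *Pdia4* and *Mir704* shared 731 and 64.4. *Igf2bp1*, a fetal RNA-binding protein, shared 426 and 58.8 with *Mir3063*. *Ankrd52* and *Mir6914* shared 1.04 in GFP+ and 423 in GFP- cells. *Gprasp1*, *Armcx5* and *Mir7646* shared 26.4 and 267. *Brsk2* and *Mir3104* were at 2384 in GFP+ cells and listed at 0 in GFP- cells. Whether the fragments came from the host transcript or the short locus cannot be told from the files, and these host genes are reported as uncertain.

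The mature sequences of the microRNAs named with these host genes, and of *Mir1191* and *Mir680-3*, which were at 0 in GFP+ cells and at 2449.7 and 1025 in GFP- cells, are given below from RefSeq (GRCm38.p6), with the seed (bases 2 to 8) in capitals. They are shown so that the short loci behind the extreme values can be identified. The table held 8 of 10 symbols looked up, and *Mir1949* and *Mir7650*, also at 0 in GFP+ cells, are named only.
miR-3104-5p: uAGGGGGCaggagccggagcccucu
miR-3104-3p: aCGCUCUGcuuugcucccccaga
miR-7578: cAUGGCUCugucuucugccucaga
miR-704: aGACAUGUgcucugcuccuag
miR-3063-5p: uGGAGAUCagguuugcacacu
miR-3063-3p: uGAGGAAUccugaucucucgcc
miR-6914-5p: uCCUGGGGuggugguggccacaga
miR-6914-3p: uCUGUCCAccucuucccag
miR-7646-5p: aCAAGAGAacugaucagugcug
miR-1191a: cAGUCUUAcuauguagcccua
miR-680: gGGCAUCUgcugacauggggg
No seed occurred in more than 1 of these sequences. The values are FPKM of the annotated loci in a cDNA library, and mature microRNAs were not measured separately.

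Short RNA genes had a wide spread. Of 1084 microRNA genes, 205 passed the filter, and 68 of these were at 0 in GFP+ and 30 at 0 in GFP- cells. Of 115 small nucleolar and Cajal body RNA genes, 62 passed, with 28 higher in GFP+ and 20 higher in GFP- cells. *Snord91a*, *Snord53* and *Snord2* were at 1768, 1604 and 1542 in GFP+ cells and at 0 in GFP- cells. *Snord96a* was at 4389.6 and 1557. An FPKM divides by a transcript length, so that for loci this short a few fragments give a high value. In contrast 12 of 13 small nucleolar RNA host genes passed and only 3 were called, 1 higher in GFP+ and 2 higher in GFP- cells.

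Counts over gene lists are to be read against the shares over all genes, 15.4% higher in GFP+ and 24.3% higher in GFP- cells. The BMP pathway was described in full. Of 8 receptor genes, 4 passed the filter. Type 1 receptors were at or near 0 in both samples, with *Bmpr1b* at 0 in each, *Bmpr1a* at 0 in GFP+ and 0.00797 in GFP- cells, *Acvr1* at 0 and 0.300 and *Acvrl1* at 0 and 0.0954. The type 2 receptor *Bmpr2* had 0.12 FPKM in GFP+ cells against 2.02 in GFP- cells, a ratio of -1.43. *Acvr2a* was listed at 0 and at 2.09. *Acvr2b* had 2.74 and 2.04, a ratio of 0.30. The co-receptor endoglin (*Eng*) was the only abundant member, at 178 in GFP+ and 145 in GFP- cells, a ratio of 0.29.

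Of 10 BMP ligand genes, 2 passed. *Bmp8a* had 10.5 FPKM in GFP+ cells against 1.86 in GFP- cells, a ratio of 2.01. *Bmp1*, a protease named as a BMP that cleaves procollagen and the antagonist chordin, had 0.203 and 7.19, a ratio of -2.77. *Bmp2* was at 0.183 and 0, *Bmp7* at 0.11 and 0.213, and *Bmp4*, *Bmp5*, *Bmp6*, *Gdf2*, *Gdf5* and *Gdf6* were at 0 in both FL samples. Of the Smad proteins that carry the signal, *Smad5* was the most abundant, at 11.8 in GFP+ and 9.88 in GFP- cells, a ratio of 0.23. *Smad1* was listed at 0 and at 0.779, and *Smad9* had 0.15 and 0.0669. The shared partner *Smad4* had 0.496 and 2.39, a ratio of -1.18. Levels of ligands and transducers were thus low in both samples, apart from *Smad5*, *Bmp8a* and *Bmp1*.

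Of 11 feedback inhibitors and antagonists, 6 passed and 1 was called. The inhibitory *Smad6* had 3.86 FPKM in GFP+ cells against 3.3 in GFP- cells, and *Smad7* was listed at 0 and at 0.489. *Bambi*, a decoy receptor, had 0.0145 and 1.2, a ratio of -1.11. The ubiquitin ligases *Smurf1* and *Smurf2* had 1.91 and 4.56, and 5.12 and 3.49. The transcriptional repressors *Tob1* and *Ski* had 15.8 and 8.88, and 11.3 and 8.38, and *Skil* had 0.829 and 0.955. The secreted antagonists *Nog*, *Grem1* and *Chrd* were at 0 in both.

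Of 16 target genes, 8 passed, none was at least 2-fold higher in GFP+ and 3 were at least 2-fold higher in GFP- cells, against 15.4% and 24.3% of all genes. So few genes do not set the list apart from these shares. *Id1* (chromosome 2, 152561987 to 152563146, NCBIM37) had 109 FPKM in GFP+ cells against 56.5 in GFP- cells, a ratio of 0.94, just short of a call. *Id3* had 96.6 and 97, and *Id2* had 11 and 9.95, so the Id genes differed among themselves. *Gata2*, a stem cell factor that BMP signals regulate, had 138 and 87.6, a ratio of 0.66. *Runx2* had 0.595 and 4.39, a ratio of -1.76, and *Hes1* was listed at 0 and at 2.15. *Atoh8* was at 0 and 0.596, *Msx2* at 0.0627 and 0.0918, and *Id4*, *Msx1*, *Hey1* and *Hamp* were at 0 in both. The median ratio of the 8 genes that passed was 0.06 as deposited and was negative, at -0.18, with equal totals. In the BM, *Id1*, *Id2* and *Id3* had 70.4, 132 and 119.8 in GFP+ and 17.5, 23.5 and 46.6 in GFP- cells. No test of the difference between tissues was possible.

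The TGF-beta pathway, which shares *Smad4*, had 10 of 16 genes past the filter, of which 2 were higher in GFP- cells and none in GFP+ cells. The receptors *Tgfbr1* (17.4 and 14.2) and *Tgfbr2* (17.1 and 17.4) were close to equal, and *Smad3*, which carries the TGF-beta signal, had 14 in GFP+ and 25.1 in GFP- cells. *Cdkn1c*, a cell cycle inhibitor of quiescent HSCs, had 16.1 and 14.2.

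The genes of the sorting markers came next, since the fractions were gated on the same profile. *Kit* had 102 FPKM in GFP+ cells against 150.3 in GFP- cells, a ratio of -0.55. *Ly6a*, which encodes Sca1, had 19.7 and 46.3, a ratio of -1.19. *Slamf1*, which encodes CD150, had 6.47 and 12.6, a ratio of -0.86. *Ptprc*, which encodes CD45 and its B220 form, had 32.7 and 45.1. All of these were lower in the GFP+ sample. *Cd48*, which the gate excludes, had 51.4 in GFP+ and 17.4 in GFP- cells, a ratio of 1.51. *Ly6c2*, one of the Ly6c genes of the lineage stain, had 16.2 and 0.635, a ratio of 3.40, whereas *Ly6c1* and *Cd3e* were at 0 in both. *Itgam*, which encodes CD11b and was not stained in the FL, had 13 and 5.2, a ratio of 1.17. Thus 3 genes of the markers that were gated out or left unstained were higher in the GFP+ sample.

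**Figure D3:**
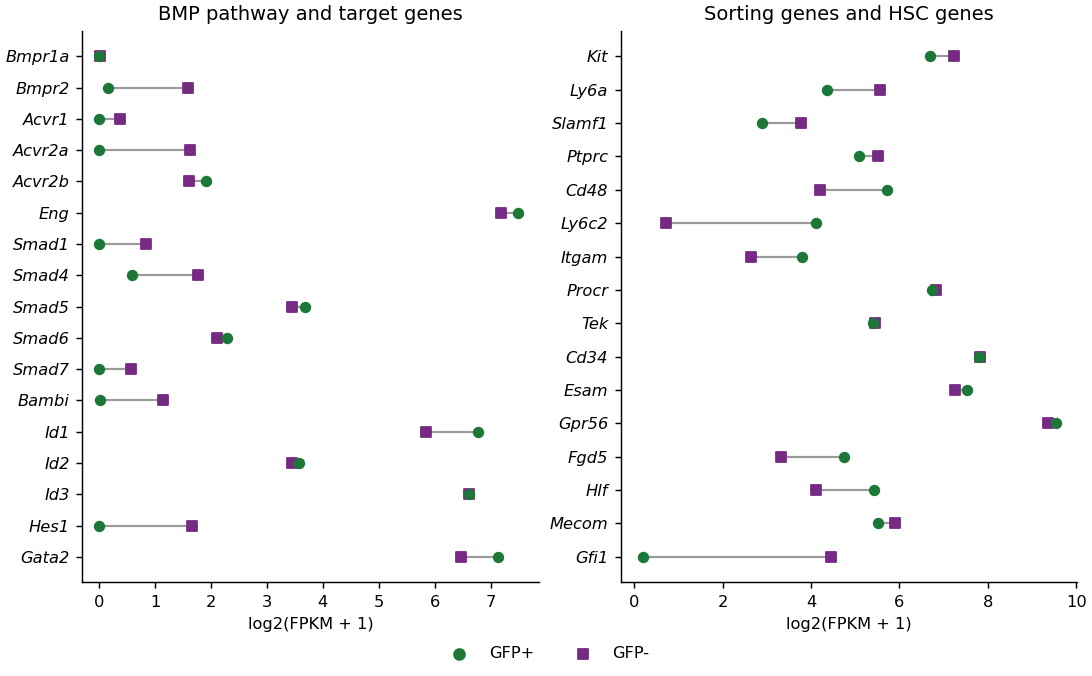
Points give log2(FPKM + 1) of BMP pathway and target genes (left) and of sorting and HSC genes (right) in FL GFP+ (green circles) and FL GFP- cells (purple squares), 1 sample each. *Id1* and *Cd48* lie further right in GFP+ cells, *Ly6a*, *Bmpr2* and *Gfi1* further right in GFP- cells, and *Cd34*, *Tek* and *Procr* almost coincide.

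Genes that mark HSCs differed little between the fractions. Of 20 HSC surface and marker genes, 19 passed, 2 were higher in GFP+, 2 were higher in GFP- cells and 15 were within 2-fold. *Cd34* had 221 FPKM in GFP+ cells against 226 in GFP- cells, *Procr*, which encodes EPCR, had 106 and 113, and *Tek*, the angiopoietin receptor, had 41.5 and 43. *Gpr56*, an adhesion receptor abundant in HSCs, had 750.5 and 657. *Fgd5* (25.8 and 8.98, a ratio of 1.43) and *Prom1* (8.72 and 2.37, a ratio of 1.53) were higher in GFP+ cells. *Kdr* (0.0315 and 3.84) and *Itgb3* (0.0375 and 3.26) were near 0 in GFP+ cells. The median ratio over the 19 genes was 0.02 as deposited and -0.21 with equal totals, so the list as a whole had no stable direction.

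Transcription factors of HSCs were likewise close. Of 28 listed, 26 passed, 2 were higher in GFP+ and 1 was higher in GFP- cells, with a median ratio of 0.40, against 0.05 over all genes. After centring on the median of genes of at least 1 in both samples it was 0.19. *Lmo2* had 263 FPKM in GFP+ cells against 238 in GFP- cells, *Mycn* 292 and 228, *Meis1* 137 and 94.3, *Lyl1* 130.4 and 79.4 and *Runx1* 16 and 19. *Hlf*, a factor of long-term HSCs, had 42.3 and 16.2, a ratio of 1.33. *Gfi1*, a repressor that restrains HSC proliferation and guides granulocyte fate (chromosome 5, 108145674 to 108155056, NCBIM37), stood apart at 0.147 in GFP+ and 20.9 in GFP- cells, a ratio of -4.25. Its paralogue *Gfi1b* had 31.7 and 25.6.

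Several Hox genes, which pattern the embryo and act in HSC self-renewal, were listed at 0 in GFP+ cells. Of 39 genes, 13 passed, 7 were higher in GFP-, 1 was higher in GFP+ cells, and 6 were at 0 in GFP+ cells. The abundant members of the *Hoxa* cluster were similar, with *Hoxa9* at 36.2 in GFP+ and 24 in GFP- cells, *Hoxa10* at 33.1 and 24.6 and *Hoxa7* at 31.1 and 21. *Hoxa3* had 12.3 and 3.79. *Hoxa6* (4.5 in GFP- cells) and *Hoxb5* (4.46) were among those listed at 0 in GFP+ cells. The median over the 13 genes was -1.23, but over the 7 genes of at least 1 in both samples it was 0.41, the opposite sign.

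Regulators of the fetal HSC programme were present in both fractions. Of 16 genes, 14 passed, 1 was higher in GFP+ (*Igf2bp1*, whose value is shared with a microRNA gene) and 3 were higher in GFP- cells. *Hmga2* had 9.94 FPKM in GFP+ cells against 13.1 in GFP- cells, *Igf2bp3* had 20.3 and 15.8, and *Igf2bp2* had 14.1 and 28.9, a ratio of -0.99. *Ezh2*, the Polycomb methyltransferase of fetal HSCs, had 36 and 28.6. Its paralogue *Ezh1* was listed at 0 in GFP+ cells and was at 11.3 in GFP- cells, with 29.6 and 12.6 in the BM fractions. *Mest* had 4.47 and 11.9, a ratio of -1.24.

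Genes of hepatocytes had the highest median ratio of the 60 lists and classes described. Of 31 genes, 21 passed, 12 (57.1%) were at least 2-fold higher in GFP+ and 5 (23.8%) were at least 2-fold higher in GFP- cells, against 15.4% and 24.3% of all genes. Their median ratio was 1.15 over these 21 genes, against 0.05 over all genes, and 0.93 after centring. Besides *Alb* and *Afp*, *Rbp4*, the retinol carrier of plasma, had 82.5 FPKM in GFP+ cells against 7.67 in GFP- cells, a ratio of 3.27. The apolipoproteins *Apoa2* (33.9 and 3.84) and *Apoa1* (32.1 and 5.21) had ratios of 2.85 and 2.42. *Itih2*, a serum inhibitor heavy chain, had 20.8 and 0.0255. *Hnf4a*, the nuclear receptor that sets hepatocyte identity, had 6.29 and 1.18, a ratio of 1.74.

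Not all liver genes followed. *Krt18*, a keratin of simple epithelia, had 5.33 FPKM in GFP+ cells against 36.2 in GFP- cells, a ratio of -2.55. *Apoc1* (4.33 in GFP- cells), *Fgb* (1.32) and *Apoh* (1.3) were listed at 0 in GFP+ cells, and *Fga* had 0.105 and 2.001. *Apoe*, which macrophages and HSCs also express, had 923 and 633. *Alb*, *Rbp4* and *Apoa2* were at 0 in BM GFP+ cells and at no more than 0.942 in BM GFP- cells. The summed FPKM of all 31 genes was 1580 in GFP+ and 769.7 in GFP- cells, and most of it was *Apoe*. Among the defining genes of hepatocytes, *Alb*, *Afp* and *Hnf4a* were above 0 in both samples, and 12 of the 31 genes were at 0 in GFP+ and 8 in GFP- cells. The part of hepatocyte RNA in other differences between the fractions was not tested.

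*Alb* (chromosome 5, 90889915 to 90905629) and *Afp* (chromosome 5, 90919740 to 90937933) are neighbours in NCBIM37 on the plus strand, and *Vtn* lies on chromosome 11 (78312593 to 78315826). The promoters of the leading liver genes are shown because several members were higher in the same fraction. Each is 300 bases, from 250 before to 50 after the start, from RefSeq (GRCm38.p6), with capitals at the half-site GTTAAT of the hepatocyte factor HNF1 or at its reverse complement.
Alb, chr5:90460620-90460919, plus strand: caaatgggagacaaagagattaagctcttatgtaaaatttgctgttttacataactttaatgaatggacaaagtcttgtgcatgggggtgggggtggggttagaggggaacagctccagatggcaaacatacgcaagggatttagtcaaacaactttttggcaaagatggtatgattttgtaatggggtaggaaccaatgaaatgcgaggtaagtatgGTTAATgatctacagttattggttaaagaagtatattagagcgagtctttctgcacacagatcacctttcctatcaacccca
Afp, chr5:90490464-90490763, plus strand: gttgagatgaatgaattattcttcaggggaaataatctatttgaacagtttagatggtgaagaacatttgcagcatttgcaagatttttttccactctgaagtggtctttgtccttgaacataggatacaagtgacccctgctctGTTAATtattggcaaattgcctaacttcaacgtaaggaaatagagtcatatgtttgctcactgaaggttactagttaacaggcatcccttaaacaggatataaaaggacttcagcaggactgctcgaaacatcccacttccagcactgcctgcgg
Vtn, chr11:78498870-78499169, plus strand: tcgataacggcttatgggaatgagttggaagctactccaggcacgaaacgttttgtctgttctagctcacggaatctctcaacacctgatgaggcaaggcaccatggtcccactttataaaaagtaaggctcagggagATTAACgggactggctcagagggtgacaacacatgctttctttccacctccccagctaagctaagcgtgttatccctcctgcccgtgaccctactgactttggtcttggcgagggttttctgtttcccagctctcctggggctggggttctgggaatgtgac
On either strand these 6 letters were found in 6 of the 10 liver genes higher in GFP+ cells that had a promoter in the table, and in 9 of the 17 that passed the filter. They were found in a promoter of 5.30% of the 8967 genes that passed the filter and of 8.24% of all 27025 symbols with a promoter. Counted by promoter, they were in 7.10% of all 32851. The motif was chosen after the values were seen, and a match is not a binding site.

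Erythroid genes were more often higher in the GFP+ than in the GFP- sample. Of 27 genes in the files, 24 passed, 11 (45.8%) were at least 2-fold higher in GFP+ and 5 (20.8%) were at least 2-fold higher in GFP- cells, against 15.4% and 24.3% of all genes, with a median ratio of 0.64, or 0.43 after centring. *Gata1*, the master factor of erythroid and megakaryocyte cells (chromosome X, 7536386 to 7555197, NCBIM37), had 36.5 FPKM in GFP+ cells against 6.58 in GFP- cells, a ratio of 2.31. *Epor*, the erythropoietin receptor, had 50.1 and 19.5, a ratio of 1.32. The blood group genes *Ermap* (13.4 and 0.662), *Rhag* (12.6 and 2.83) and *Kel* (14.9 and 4.04) had ratios of 3.11, 1.83 and 1.65. *Car1*, the erythrocyte carbonic anhydrase, had 9.99 and was listed at 0 in GFP- cells.

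Other erythroid genes were equal or lower in GFP+ cells. *Klf1*, a factor of red cell maturation, had 19.6 FPKM in GFP+ cells against 13.9 in GFP- cells, and *Car2* had 420.4 and 547. *Add2* (5.36 in GFP- cells) and *Trim10* (4.82) were listed at 0 in GFP+ cells, and *Bpgm* had 3.16 and 12.3, a ratio of -1.68. The adult globins were near equal. *Hbb-bt* had 979.5 and 1021, *Hbb-bs* and *Hbb-b1* shared 629.8 and 623, and *Hba-a1* and *Hba-a2* shared 247 and 215. The embryonic globin *Hbb-bh1* had 0.177 and 4.15, a ratio of -2.13. Haem synthesis genes split, with *Uros* (27.7 and 5.05) higher in GFP+ cells and *Ppox* (3.74 and 27.5), *Cpox* (0.0689 and 5.44) and the mitochondrial iron importer *Slc25a37* (3.87 and 12.8) higher in GFP- cells.

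The promoter of *Epor* is shown as the example for this list, from the same source, with capitals at the reverse complement of AGATAA, letters that GATA factors bind.
Epor, chr9:21963527-21963826, minus strand: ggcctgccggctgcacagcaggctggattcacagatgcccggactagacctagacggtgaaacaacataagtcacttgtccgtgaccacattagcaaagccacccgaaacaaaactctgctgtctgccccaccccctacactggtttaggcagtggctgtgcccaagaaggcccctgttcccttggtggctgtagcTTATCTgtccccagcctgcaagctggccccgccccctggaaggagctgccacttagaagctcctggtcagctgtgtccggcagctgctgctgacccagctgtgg
AGATAA was found on either strand in 4 of the 9 erythroid genes higher in GFP+ cells that had a promoter and in 6 of the 16 that passed. It was found in a promoter of 8.12% of all genes that passed the filter and of 12.7% of all symbols with a promoter. Counted by promoter, it was in 11.2%. It was likewise chosen after the values were seen.

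**Figure D4:**
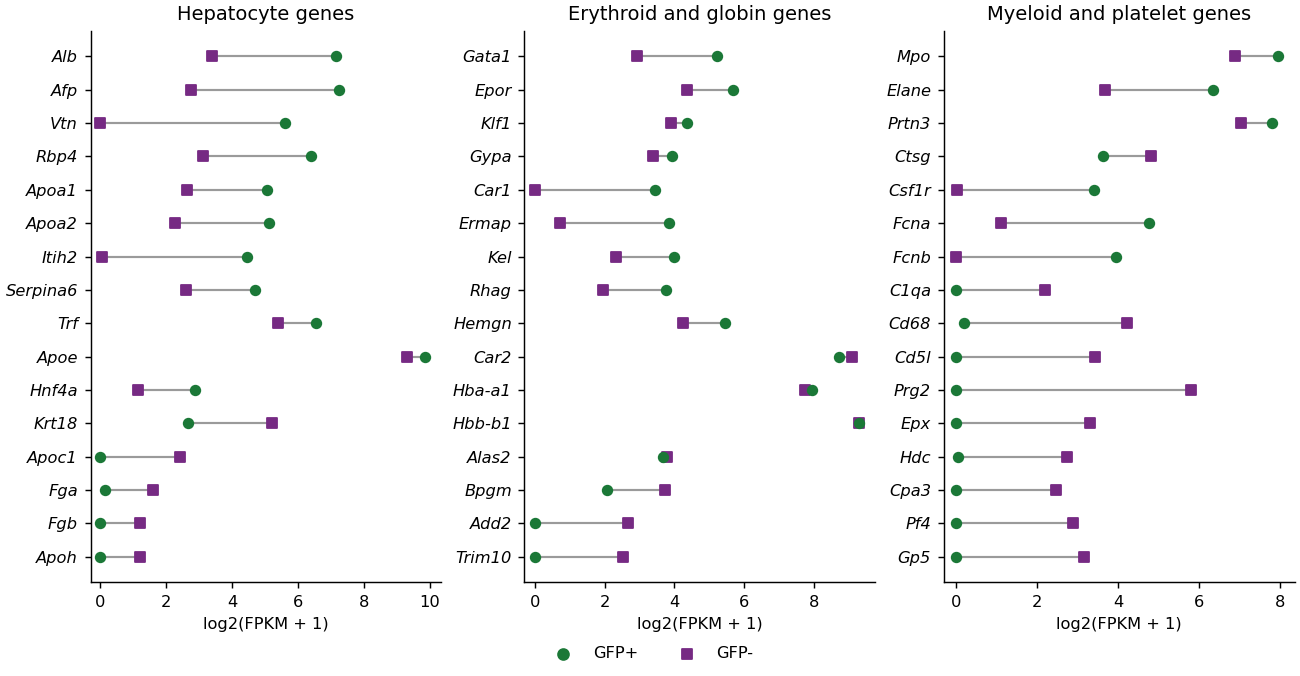
Points give log2(FPKM + 1) of hepatocyte, erythroid and globin, and myeloid, mast-cell and platelet genes in FL GFP+ (green circles) and FL GFP- cells (purple squares), 1 sample each. *Alb*, *Afp*, *Vtn*, *Gata1*, *Epor*, *Elane* and *Fcna* lie further right in GFP+ cells, while *Prg2*, *Epx*, *Pf4* and *Gp5* are at 0 in GFP+ cells.

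Genes of the primary granules and myeloid progenitors were in part higher in GFP+ cells. Of 17 genes, 14 passed, 6 were higher in GFP+ and 2 were higher in GFP- cells, with a median ratio of 0.72. *Mpo*, myeloperoxidase, had 247 FPKM in GFP+ cells against 117 in GFP- cells, a ratio of 1.07. *Elane*, neutrophil elastase, had 79.9 and 11.7, a ratio of 2.67, and *Prtn3* had 222 and 129.8. *Csf1r*, the receptor for macrophage colony-stimulating factor, had 9.56 and 0.0177, a ratio of 3.38. *Ctsg*, cathepsin G, had 11.4 and 27.1, a ratio of -1.18. Late neutrophil genes had no common direction. Of 16, 8 passed, with *Fcnb* at 14.5 and 0, *S100a8* at 25.3 and 9.78, its partner *S100a9* at 2.06 and 13.6, and *Lyz2* at 156 and 220.4.

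Macrophage genes were divided between the fractions. Of 24 genes, 17 passed, 8 were higher in GFP+ and 8 were higher in GFP- cells, and only *Axl* was within 2-fold. *Fcna*, a ficolin of FL macrophages, had 26.1 FPKM in GFP+ cells against 1.14 in GFP- cells, a ratio of 3.66. *Treml4* had 6.32 and was listed at 0 in GFP- cells. *Emr1*, which encodes the F4/80 antigen, had 12.1 and 2.37, a ratio of 1.96. On the other side *Cd68*, a lysosomal glycoprotein, had 0.157 and 17.8, a ratio of -4.02, and *Cd5l* (9.83 in GFP- cells), *Marco* (5.93) and *Spic* (3.56) were listed at 0 in GFP+ cells. The subunits of complement C1q disagreed, with *C1qc* at 31.3 in GFP+ and 7.38 in GFP- cells, *C1qa* at 0 and 3.57, and *C1qb* at 0.266 and 7.18. The summed FPKM of the 24 genes was 130.2 in GFP+ and 94.6 in GFP- cells, and 9 and 4 of them were at 0. The part of macrophage RNA in other differences was not tested.

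Genes of mast cells, basophils and eosinophils were mostly at 0 in the GFP+ sample. Of 17 genes, 10 passed, 6 were higher in GFP- and 1 was higher in GFP+ cells. *Prg2*, the eosinophil major basic protein (chromosome 2, 84820618 to 84823789, NCBIM37), was listed at 0 in GFP+ cells and was at 54.5 in GFP- cells. *Epx* (8.89), *Prg3* (6.22), *Cpa3* (4.52) and *Ear1* (1.97) were also listed at 0 in GFP+ cells, and *Hdc*, which makes histamine, had 0.0425 and 5.71. The median ratio of the 10 genes was -2.02. The 3 genes of at least 1 in both samples, *Gata2*, *Il4* and *Il6ra*, gave a median of 0.66, which is the ratio of *Gata2* itself. Of all 17 genes, 12 were at 0 in GFP+ and 7 in GFP- cells, and their summed FPKM was 157.6 and 180.2. *Gata2*, also listed as a BMP target, supplied most of the sum in GFP+ cells and a smaller share of it in GFP- cells.

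Megakaryocyte and platelet genes were likewise mixed. Of 28 genes, 24 passed, 5 were higher in GFP+ and 8 were higher in GFP- cells. The other 11 were within 2-fold, among them *Itga2b* (12.5 in GFP+ and 11.7 in GFP- cells), *Gp9* (40.6 and 48.6) and *Vwf* (5.68 and 4.9). *Gp5* (7.95 in GFP- cells), *Pf4* (6.45), *Treml1* (2.98) and *Ppbp* (2.93) were listed at 0 in GFP+ cells. *Tubb1* and *Gp1bb*, at 14.6 and 3.02 in GFP+ cells, were listed at 0 in GFP- cells.

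Among lymphoid priming genes, 12 of 21 passed, none was higher in GFP+ and 2 (16.7%) were higher in GFP- cells. Over all genes the shares were 15.4% and 24.3%. The other 10 were within 2-fold, and the median ratio of the 12 was 0.30, or 0.09 after centring. *Flt3* and *Ikzf1* were the 2 called genes. *Flt3*, the receptor of multipotent and lymphoid progenitors (chromosome 5, 148142317 to 148212065, NCBIM37), had 7.29 FPKM in GFP+ cells against 31 in GFP- cells, a ratio of -1.95. *Ikzf1*, the lymphoid factor Ikaros, had 9.81 and 29.3, a ratio of -1.49. *Bcl11a* had 80.9 and 51.8. Of 17 B-cell genes, only 5 passed, 3 higher in GFP+ and 1 higher in GFP- cells. Their median ratio was 1.07, and 0.28 over the 2 genes of at least 1 in both samples. The antigen receptor chain *Cd79b* had 87.6 and 41.1, and *Cd79a* had 7.16 and 0.766. *Vpreb1*, of the pre-B-cell receptor, was listed at 0 in GFP+ cells and was at 1.6 in GFP- cells. Of 22 T-cell and natural killer cell genes, 5 passed, and 15 and 14 were at 0 in GFP+ and GFP- cells.

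Endothelial genes, many of which HSCs share, were largely equal. Of 21 genes, 18 passed, none was higher in GFP+ and 4 were higher in GFP- cells. *Egfl7* had 219 FPKM in GFP+ cells against 251 in GFP- cells, *Tie1* 85.7 and 81.3 and *Sox18* 44.1 and 44. *Nos3* (7.93 in GFP- cells) and *Lyve1* (3.46), a marker of liver sinusoids and lymphatics, were listed at 0 in GFP+ cells, and *Cldn5* had 0.575 and 8.02. Of 22 stromal and mesenchymal genes, 7 passed, none was higher in GFP+ and 3 were higher in GFP- cells. These were *Fn1* (0.858 and 8.68), *Col1a2* (0.023 and 3.85) and *Cxcl12*, the main chemokine for HSCs, which was listed at 0 in GFP+ cells and was at 1.82 in GFP- cells. *Vim* had 115 and 206.

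**Figure D5:**
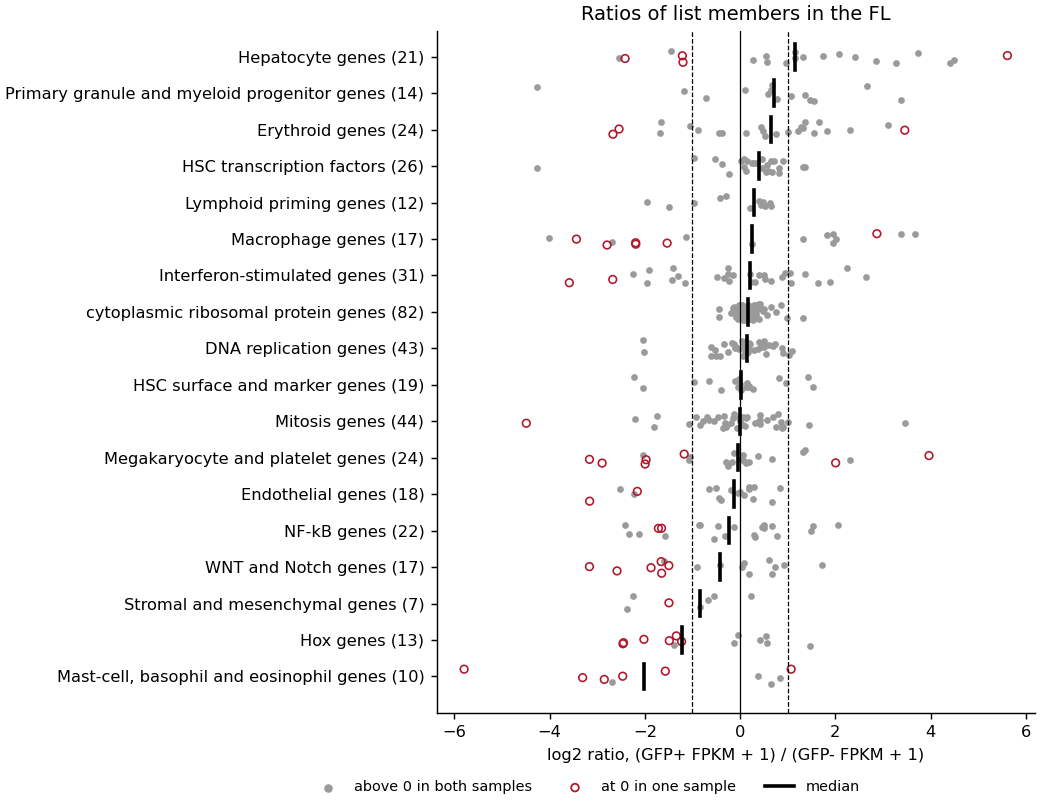
Each point is a list member that passed the filter, placed by its log2 ratio of GFP+ over GFP- cells, with the number of such members in parentheses and a bar at the median. Lists are ordered by median, from 1.15 for hepatocyte genes to -2.02 for mast-cell, basophil and eosinophil genes. Open red circles are members at 0 in one sample. Their number varies among the lower lists, with 6 of 13 Hox genes and 1 of 7 stromal and mesenchymal genes.

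Housekeeping classes were tightly grouped around a small positive ratio, which was of the size of the shift between the libraries. Of 85 cytoplasmic ribosomal protein genes, 82 passed and only *Rpl13a*, at 1722 in GFP+ and 692 in GFP- cells, was called. It shares these values with *Mir5121* and *Snord33*. The median ratio of the class was 0.17 as deposited and -0.09 with equal totals. Of 36 respiratory complex I genes that passed, 1 was higher in GFP- cells, and of 67 splicing factor genes 3 were. Of 39 proteasome genes, 3 were higher in GFP+ cells, namely *Psma8* (16.8 and 2.03), *Psmd3* (209 and 81.9) and *Psmd11* (179 and 85.5). Mitochondrial ribosomal protein genes spread more, with 10 of 77 higher in GFP+ and 9 higher in GFP- cells, from *Mrps2* (161 and 46.2) to *Mrpl49* (8.36 and 36.9). Of 281 zinc finger *Zfp* genes, a low-level class, 47 were higher in GFP+ and 100 were higher in GFP- cells, and 43 were at 0 in GFP+ cells.

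Genes of the cell cycle were at high levels in both fractions. Of 43 DNA replication genes, all passed and 2 were higher in each fraction. *Mcm6* had 362 FPKM in GFP+ cells against 254 in GFP- cells, *Rfc2* had 304 and 208, and *Gins2*, of the replicative helicase, had 13.7 and 59.9, a ratio of -2.05. Of 44 mitosis genes, all passed, with 3 higher in GFP+ and 5 higher in GFP- cells and a median ratio of -0.0044. The phosphatases that activate Cdk1 were opposite. *Cdc25c* had 28.1 in GFP+ and 1.63 in GFP- cells, a ratio of 3.47, and *Cdc25b* (chromosome 2, 131012685 to 131024233, NCBIM37) was listed at 0 in GFP+ cells and was at 21.5 in GFP- cells. *Plk1*, the polo kinase, had 13.4 and 65.8, a ratio of -2.21, while *Pttg1*, securin, had 88.2 and 31.7, a ratio of 1.45. *Mki67* had 21 and 10.8.

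Regulators of cell cycle entry also varied among themselves. Of 23 genes, 20 passed, 3 were higher in GFP+ and 4 were higher in GFP- cells. *E2f2* had 17.1 FPKM in GFP+ cells against 1.04 in GFP- cells, *E2f3* had 12.5 and 2.78, and *Ccne1*, cyclin E, had 42.7 and 19. *Cdk6*, a kinase of exit from quiescence, had 4.29 and 17.1, a ratio of -1.78, and the inhibitor *Cdkn1b*, p27, had 0.122 and 5.13, a ratio of -2.45. *Cdk4* had 969.6 and 711. In the MYC network 2 of 13 genes that passed (15.4%) were higher in GFP+ cells, the same share as over all genes (15.4%). They were *Max* (98.4 and 26.6) and *Mnt* (3.05 and 1.01), and none was called higher in GFP- cells. *Myc* itself had 171 and 96.7, a ratio of 0.81. The median ratio of the list was 0.11 as deposited and -0.12 with equal totals.

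Of 29 WNT and Notch genes, 17 passed, 1 was higher in GFP+ and 7 were higher in GFP- cells, and 6 of these were listed at 0 in GFP+ cells. They included the receptor *Fzd6* (7.96 in GFP- cells), the ligand *Jag2* (4.997) and *Dvl1* (2.66). *Axin1*, a scaffold of beta-catenin breakdown, had 7.14 in GFP+ and 1.46 in GFP- cells, a ratio of 1.73, and beta-catenin (*Ctnnb1*) had 172 and 103. The 9 members of at least 1 in both samples had a median of 0.18, against -0.42 for the 17. Of 20 JAK-STAT genes that passed, 3 were higher in GFP+ and 2 were higher in GFP- cells. *Stat6* had 8.79 and 31.9, a ratio of -1.75, and *Ptpn11*, which encodes the phosphatase Shp2, had 16 and 6.76, a ratio of 1.13. *Stat5a* and *Stat5b* were within 2-fold.

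Immune and stress genes went both ways. Of 31 interferon-stimulated genes that passed, 7 (22.6%) were higher in GFP+ and 9 (29.0%) were higher in GFP- cells. All genes also went both ways, at 15.4% and 24.3%, so these counts are not a trait of the list. *Usp18*, which limits interferon signalling, had 10.3 FPKM in GFP+ cells against 0.814 in GFP- cells, a ratio of 2.64, *Xaf1* had 24.3 and 4.32, and *Ifih1*, the RNA sensor MDA5, had 16.4 and 3.68. *Gbp3* (11 in GFP- cells) and *Rsad2* (5.38) were listed at 0 in GFP+ cells, and *Ddx58*, the RNA sensor RIG-I, had 7.16 and 17.1. The median of this list was 0.22 as deposited and -0.03 with equal totals. Of 22 NF-kB genes that passed, 3 (13.6%) were higher in GFP+ and 6 (27.3%) were higher in GFP- cells, shares near those of all genes. The kinase subunits split, with *Ikbkb* at 43.1 and 14.8 and *Ikbkg* at 1.97 and 11.9. *Tnfaip3*, the inhibitor A20, had 0.0171 and 4.45.

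MHC class II genes were low in both FL samples. *Cd74*, the invariant chain, had 6.17 FPKM in GFP+ cells against 9.19 in GFP- cells. *H2-Oa* had 0.108 and 6.73, and the dendritic-cell factors *Batf3* (4.9 in GFP+ cells, 0 in GFP- cells) and *Zbtb46* (0 and 11.3) lay on opposite sides. MHC class I genes were close, with *B2m* at 781 and 885 and *H2-K1* at 232 and 271.

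Energy metabolism was similar in its abundant genes. Of 27 glycolysis genes that passed, 2 were higher in GFP+ and 1 was higher in GFP- cells. The hexokinases differed, with *Hk2* at 0.575 in GFP+ and 10.8 in GFP- cells, a ratio of -2.91, *Hk3* at 7.55 and 0.887, a ratio of 2.18, and *Hk1* at 40.4 and 67.7. *Ldha* had 1213 and 978. Of 26 cholesterol synthesis genes that passed, 3 were higher in GFP+ and 2 were higher in GFP- cells, among them *Mvk*, mevalonate kinase, at 68 and 11.7, a ratio of 2.44. Of 26 Foxo and antioxidant genes that passed, 5 were higher in GFP+ and 4 were higher in GFP- cells. *Nqo1* had 19.9 and 2.8, a ratio of 2.46, its regulator *Keap1* had 107 and 28.8, and *Sesn2*, a stress-induced sestrin, was listed at 0 and at 8.37.

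Of 26 Polycomb and DNA methylation genes, 25 passed, 3 (12%) were higher in GFP+ and 6 (24%) were higher in GFP- cells, shares near those of all genes (15.4% and 24.3%). The methyltransferases *Dnmt1* (167 in GFP+ and 106 in GFP- cells), *Dnmt3a* (35.4 and 23.4) and *Dnmt3b* (177 and 176) were within 2-fold. *Phc2* had 19.5 and 3.3, a ratio of 2.25, *Cbx7*, a self-renewal factor of HSCs, had 4.08 and 17.9, a ratio of -1.90, and *Asxl1* was listed at 0 and at 8.06. Of 11 Bcl2 family genes that passed, *Bcl2* was listed at 0 in GFP+ cells and was at 3.24 in GFP- cells, *Mcl1* had 29.6 and 14.5 and *Bok* had 12.9 and 43.6. Of 20 homing and adhesion genes that passed, 1 was higher in GFP+ cells, *Itgb7* at 25.7 and 5.51, and 2 were higher in GFP- cells.

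Genes linked to RNA handling and to the sex of the embryos moved with the fractions as follows. Of 16 immediate-early genes that passed, which dissociation can induce, 4 were higher in each fraction. *Fos* had 5.52 FPKM in GFP+ cells against 1.99 in GFP- cells, *Junb* 30.8 and 12.5, and *Dusp1* 1.37 and 25.8. Of 21 heat shock and chaperone genes, 2 were higher in GFP+ and 5 were higher in GFP- cells, with *Hspa1a* (1.92) and *Hspb1* (1.86) listed at 0 in GFP+ cells. The X-inactivation transcript *Xist* had 10.5 and 6.64. The Y-linked *Eif2s3y* had 10.6 and 25.7, *Ddx3y* had 2.31 and 7.44, *Uty* was at 0 and 3.46, and *Kdm5d* had 9.57 and 3.05. Transcripts of both sexes were thus present in each sample, and the mix of embryos cannot be told apart from the fraction. Olfactory and vomeronasal receptor genes, which these cells are not known to use, reached the filter in 44 of 1441 cases, with 29 at 0 in GFP+ and 8 at 0 in GFP- cells.

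In the BM the same rule gave 12385 genes, of which 4226 (34.1%) passed 2-fold. Over the 12385 genes, 2154 (17.4%) were higher in GFP+ and 2072 (16.7%) were higher in GFP- cells. Among the 11539 genes that reached 1 FPKM in GFP- cells, 799 (6.92%) were at 0 in GFP+ cells. Among the 10941 genes that reached 1 FPKM in GFP+ cells, 164 (1.5%) were at 0 in GFP- cells. Zeros were thus more frequent in the GFP+ sample of both tissues. Of the 1385 genes at 0 in FL GFP+ cells, 554 (40%) were at 1 or more in both BM samples and 177 were at 0 in both. Of the 206 genes at 0 in FL GFP- cells, 40 (19.4%) and 59 were. Of the 31 hepatocyte genes, 7 passed the filter in the BM, with 1 higher in GFP+ and 2 higher in GFP- cells, a median ratio of -0.14 and a summed FPKM of 951.6 and 1074. *Afp* was the gene higher in GFP+ cells there, at 12.9 and 4.79.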

How the data were processed

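RNA of LSK-SLAM cells was prepared with the mirVana kit and the SMARTer protocol and sequenced on a HiSeq2000. The authors mapped reads with Bowtie and TopHat and computed the deposited FPKM values with Cufflinks 2.2.1, with Cuffquant corrections for fragment bias and multiple mapping and geometric Cuffnorm normalization over the 4 samples. Their methods name NCBI37/mm9 and the submitters' processing notes name mm10. The files hold no coordinates, so positions were taken from GENCODE vM1 (NCBIM37) and sequences from RefSeq (GRCm38.p6). Read counts are not in the files. The authors' methods list more uniquely mapped reads for the GFP+ than for the GFP- library of the FL, a total that was not used here. Depth is thus unknown from the files, no interval could be given, and the number of samples limits the precision.

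Ratios were log2((FPKM + 1)/(FPKM + 1)), with a filter of an FPKM of at least 1 in either sample and a call at 2-fold. A fold on this scale understates the change of low genes. No test was run, since each group had 1 sample. The calling step was run on simulated data only as a check of the code. That run does not show how reliable the calls in these libraries are, since their noise is not known without replicates. Python 3.11.15, numpy 2.4.6, pandas 2.3.3 and matplotlib 3.10.9 were used.

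The members and gene lists were chosen with earlier results of these data known. Named genes were all BMP and sorting genes, list members of highest FPKM or largest ratio, and the leading genes of each direction, of each set of zeros and of each sample. Further members, the genes with no shared value and the motifs were chosen after their values were seen. Genes that pass only through the fraction where they are high had to differ, so counts over lists are descriptions. Alternatives were pseudocounts of 0.1 and 5, scaling, filters, folds of 1.5 and 4, identical values counted once and short RNA genes left out. Some list members are not reported here.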

Additional observations from a re-analysis of the deposited data

Results flagged for a closer look

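In 4 of the 60 lists and classes the median ratio was at least 0.5 in size in both tissues and opposite in sign, over at least 5 genes in each. The difference between tissues was not tested, since each had 1 sample per fraction. Each median was taken over the members that passed the filter in its own tissue, so the members differed between FL and BM. Over members of at least 1 in both FL samples, the FL median of the mast-cell, basophil and eosinophil list became 0.66. The FL medians of the other flagged lists kept their sign there. Genes of mast cells, basophils and eosinophils had a median ratio of -2.02 in the FL and 1.17 in the BM, where *Prg2* was at 6588 in GFP+ and 767 in GFP- cells. Stromal and mesenchymal genes had -0.84 in the FL and 0.92 in the BM. Small nucleolar and Cajal body RNA genes had 0.62 in the FL and -0.63 in the BM. Keratin genes had -1.11 in the FL and 0.96 in the BM, with 3 of the 9 FL members, *Krt81*, *Krt83* and *Krt85*, listed at 0 in GFP+ cells and at 1.16 in GFP- cells. These 3 have the same FL values, and the FL median of the class is the ratio that the pseudocount sets for them.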

How the results depend on the processing

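No paired analysis was possible because each fraction of the FL had 1 sample, with no replicate numbers. Of genes higher in GFP+ cells there were 994 with a pseudocount of 5, 1196 at an FPKM of at least 10 in either sample, 3326 at 1.5-fold and 479 at 4-fold, against 1871. Of genes higher in GFP- cells there were 1079 with a pseudocount of 5, 810 at an FPKM of at least 1 in both samples, 897 at an FPKM of at least 10 in either and 1133 at 4-fold, against 2946. Genes at 0 in GFP+ cells numbered 387 and 178, and genes at 0 in GFP- cells 113 and 64, with an FPKM of at least 5 and 10 in the other fraction. The counts under a higher filter or a larger fold follow from their construction. So does the drop with a pseudocount of 5, since a larger pseudocount draws every ratio towards 0, most of all at low FPKM. Scaling to equal totals, to the upper quartile or to the median moved ratios by 0.26, 0.22 and 0.22 and turned the sign of the median in 22 of 60 lists. Over members of at least 1 in both samples, a choice made after the data were seen, the median changed sign in 17 of 60 lists. Of these, mast-cell, basophil and eosinophil genes (to 0.66) and Hox genes (to 0.41) had medians past 2-fold, and BMP receptors (to 0.29), ligands (to 2.01) and transducers (to 0.23), NF-kB genes (to 0.39), WNT and Notch genes (to 0.18) and Zfp genes (to 0.26) were among the rest. Macrophage genes went from 0.25 to 1.63. Of 138 named genes, 55 moved with a pseudocount of 0.1 and 69 with 5, and none reversed. The files hold no counts, so the depth behind a value could not be weighed.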
